A study of Homo sapiens with 208 samples.

Results

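Ribosome biogenesis genes encode the nucleolar proteins that transcribe, cut, modify and fold ribosomal RNA and join it with ribosomal proteins into ribosomal subunits. A list of 34 such genes was described here across the time courses of a lung cancer line and its gefitinib-resistant derivative. The members are named genes, found through the RefSeq accession that each array probe carries. The rule uses no measured value, although the list was drawn up with earlier results of these data known. A matched probe was found for 32 of the 34 genes, and all 32 passed the filter on dim signals, among 13276 genes tested and 16961 genes with a probe. POLR1C and NOP16 had no matched probe and their expression is not reported.

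PC9 is a human lung adenocarcinoma line with an activating deletion in the EGF receptor (EGFR), and gefitinib inhibits the EGFR kinase. PC9M2 (PC9GRM2 in the sample labels) is a single clonal line that was selected from PC9 by long exposure to gefitinib, so that it stands for 1 route to resistance. All cells were starved for 48 h before the first sample. RNA was then measured in each line without treatment, with 0.5 μM gefitinib (spelled gefinitib in the labels) given ahead of the first sample, with 100 ng/ml EGF given at 0 h, or with both. Each of these 8 groups has 26 arrays, taken at 0 h, at 0.5 h and at every hour from 1 to 24 h, and there is 1 array per time point. The time points therefore stood in for replicates, n is their number, and p-values measured only the spread between these samples. A level is the log2 of the quantile-normalized signal intensity of a gene's probe, and a difference of 1 is a 2-fold change. A gene was called higher or lower when its adjusted p (limma on the difference between groups at each time point, two-sided, Benjamini-Hochberg over all 13276 genes) was below 0.05. A gene that fell or rose with gefitinib was lower or higher than in untreated cells at matched time points, whatever its change over time.

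The 4 treatments of a time point shared a slide at all 52 time points of both lines, whereas the lines shared 0 slides and 0 scan days. The PC9 arrays were read with a saturation limit near 65525 scanner units and had 183 to 1616 saturated features. The PC9M2 arrays were read with a limit of 778994 or above and had 0, so that the line and the scanner range cannot be told apart in any comparison of levels between the lines. Differences between treatments within a line do not cross this boundary, but a saturated PC9 signal can still hide a change. A comparison of such differences between the lines does cross it. The features well above background numbered from 24464 to 35938 on an array (median 29879). 3 arrays stood apart from their neighbours in time, namely untreated PC9M2 at 11 h, gefitinib-treated PC9 at 16 h and untreated PC9 at 18 h, whose spread around the neighbours was 1.03, 0.861 and 0.807 against a median of 0.402 (SD of log2 differences over all genes). The counts below are therefore also given without these 3 time points. All 10 epithelial markers were well above background on all 104 arrays of each line. Among 14 markers of blood, endothelial and fibroblast cells, LUM was well above background on 1 array of each line and COL3A1 on 2 and 4, whereas CD14 and VWF were so on all 104 of each line. Their summed log2 signal ranged from 9.83 to 10.98 in untreated and from 10.13 to 11.01 in gefitinib-treated PC9, and from 8.96 to 9.90 and from 8.79 to 10.69 in PC9M2. Its part in the results below was not tested.

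Ribosome synthesis is a major cost of a growing cell and follows growth factor signaling. RNA polymerase I (Pol I) transcribes the precursor of the ribosomal RNAs in the nucleolus. Box C/D and box H/ACA small nucleolar ribonucleoproteins (snoRNPs) modify it, and large assemblies of processing factors release the small and the large subunit. Many genes of this program are known targets of the transcription factor MYC, which is itself induced by the ERK pathway downstream of EGFR.

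The promoters of members that fell under gefitinib are shown first, since these genes moved together. Of the 34 genes, 29 had an entry among the RefSeq promoters (GRCh38.p14, 250 bases before to 50 after the start). The 200 bases just before the start are printed 5′ to 3′ along the gene's strand for LYAR, NOP2, DDX21 and UTP20, which were among the members that fell furthest in PC9, for NOP10, which had the most motif sites of the measured members, and for NOB1, which rose in both lines. Capitals mark CACGTG, the E-box bound by MYC and its partner MAX, and CCGGAA or its reverse complement TTCCGG, the core bound by ETS factors. Both strands were searched, and a site of one motif cannot share bases with a site of the other. LYAR (chr4:4290155-4290354, minus strand), DDX21 (chr10:68955970-68956169, plus strand) and NOP2 (chr12:6568292-6568491, minus strand) each show an ETS core. UTP20 (chr12:101279905-101280104, plus strand) shows an E-box, NOP10 (chr15:34343137-34343336, minus strand) shows 2 of each, and NOB1 (chr16:69754927-69755126, minus strand) shows neither.
LYAR: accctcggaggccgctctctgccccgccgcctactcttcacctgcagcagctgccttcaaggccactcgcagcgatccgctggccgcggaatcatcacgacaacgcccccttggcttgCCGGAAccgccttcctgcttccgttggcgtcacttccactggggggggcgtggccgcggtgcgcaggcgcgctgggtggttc
NOP2: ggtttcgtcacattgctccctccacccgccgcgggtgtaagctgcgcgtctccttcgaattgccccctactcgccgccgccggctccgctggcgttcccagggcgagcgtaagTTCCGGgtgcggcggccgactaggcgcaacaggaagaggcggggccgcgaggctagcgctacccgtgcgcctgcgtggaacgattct
DDX21: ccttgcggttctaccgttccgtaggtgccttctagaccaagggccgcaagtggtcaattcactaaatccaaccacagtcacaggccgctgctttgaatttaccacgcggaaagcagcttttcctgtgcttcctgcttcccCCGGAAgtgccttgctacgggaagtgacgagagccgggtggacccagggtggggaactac
UTP20: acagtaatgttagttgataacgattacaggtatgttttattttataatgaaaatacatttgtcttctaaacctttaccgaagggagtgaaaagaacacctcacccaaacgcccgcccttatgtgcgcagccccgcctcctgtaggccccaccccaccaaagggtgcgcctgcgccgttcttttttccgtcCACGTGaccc
NOP10: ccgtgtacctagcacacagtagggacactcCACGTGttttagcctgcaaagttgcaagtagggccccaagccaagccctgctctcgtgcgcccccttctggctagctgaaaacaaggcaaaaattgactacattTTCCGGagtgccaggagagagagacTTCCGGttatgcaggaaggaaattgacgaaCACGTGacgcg
NOB1: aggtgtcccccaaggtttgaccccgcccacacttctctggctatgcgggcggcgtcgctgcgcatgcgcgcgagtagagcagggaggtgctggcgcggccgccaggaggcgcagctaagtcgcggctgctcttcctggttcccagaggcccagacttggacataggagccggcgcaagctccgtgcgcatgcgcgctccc

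Over the whole windows, CACGTG was found in 9 of the 29 member promoters (31%), against 9.8% of the 10699 promoters of tested genes and 7.26% of all 35116 promoters in the table. The ETS core was found in 15 of 29 (51.7%), against 28.1% and 17.2%. Both motifs were found in 5 member promoters and neither in 10 (34.5%). Among the 21 promoters of members that fell under gefitinib in PC9, 7 (33.3%) held the E-box and 13 (61.9%) the ETS core. These are counts of letters in a window. They were not tested, and a window without a motif says nothing about whether the factor acts on the gene.

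Gefitinib lowered most ribosome biogenesis genes in both lines. In PC9, 26 of the 32 members were lower (37.2% of all tested genes were), 3 were higher (35.1% of all tested genes) and 3 were not called. In PC9M2, 29 were lower (34.1% of all tested genes), 1 was higher (32.6%) and 2 were not called. The median member difference was -0.98 in PC9 and -0.73 in PC9M2, whereas the median over all tested genes was -0.02 and -0.01. On the probes used, 16 members fell 2-fold or more in PC9 and 7 in PC9M2, and the share of all genes that did so is not given. Other probes fell short of 2-fold in PC9M2 for NOP56 (-0.63 and -0.92), TSR1 (-0.88) and POLR1B (-0.85). Those of NOLC1 differed by -0.93 and -1.04 there. In PC9 the other DDX10 probe differed by -0.94. Without the 3 time points named above, the counts were 27 lower and 2 higher in PC9 and 29 lower and 1 higher in PC9M2. The RNA was measured in bulk, so that fewer cells expressing a gene and less RNA per cell cannot be told apart.

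**Figure D1:**
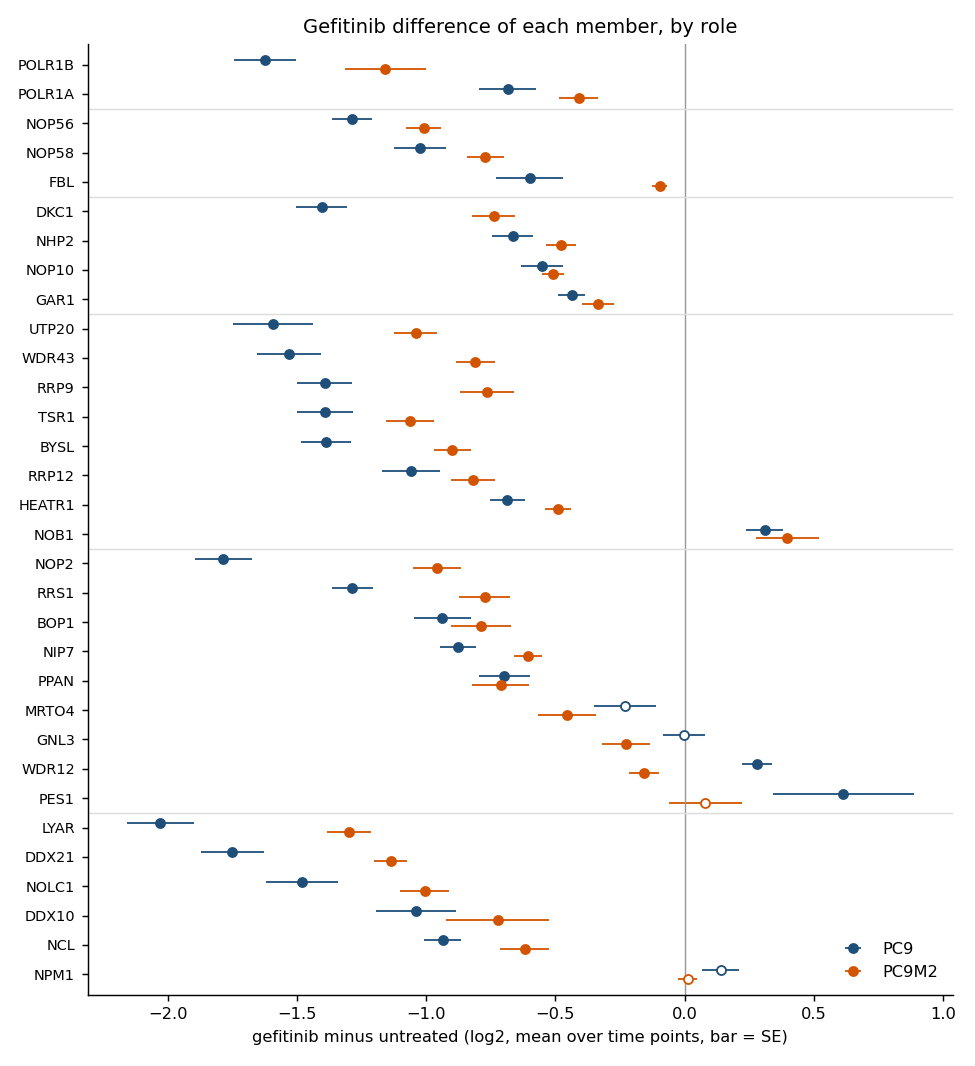
Mean log2 difference between gefitinib-treated and untreated cells over 26 time points (25 for NOLC1 in PC9) for each of the 32 members, with bars for the SE. Blue is PC9, orange is PC9M2, open points were not called, and grey lines separate the roles in the order Pol I subunits, box C/D snoRNP, box H/ACA snoRNP, small subunit processing, large subunit assembly, and multifunctional proteins. Most points lie left of 0 in both lines and the PC9 point is the further left for most genes; the NPM1 probe was saturated on every PC9 array, so that its PC9 point carries no fold.

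Both measured Pol I subunits fell in both lines. POLR1B, the second largest subunit of the enzyme, had levels of 5.76 to 7.11 (median 6.48) in untreated PC9 and of 3.27 to 5.86 (median 4.74) with gefitinib. The ranges touch only at their ends. Its mean difference was -1.62 (SE 0.12, n = 26, lower at 26 of 26 time points), and its probe was well above background on 18 of the 26 treated PC9 arrays, so that its treated level lay near background. In PC9M2 it went from 6.28 to 8.90 (median 7.06) to 4.74 to 7.14 (median 5.88), a difference of -1.16 (SE 0.16). POLR1A, the largest subunit, fell by 0.68 (SE 0.11) in PC9 and by 0.41 (SE 0.07) in PC9M2.

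The core proteins of both snoRNP classes all fell. Of the box C/D proteins, which guide and carry out ribose methylation, NOP56 fell by 1.29 (SE 0.08) in PC9 and by 1.01 (SE 0.07) in PC9M2. In PC9M2 its levels were 13.98 to 14.63 (median 14.35) without and 12.60 to 13.76 (median 13.36) with gefitinib. These 2 ranges did not overlap, which held in PC9M2 for 2 members below (0.316% of all tested genes) and in PC9 for 1 (0.648%). NOP58 fell by 1.02 (SE 0.10) and by 0.77 (SE 0.07). FBL, the methyltransferase, fell by 0.60 (SE 0.13) and by 0.10 (SE 0.03), with its probe saturated on 24 PC9 arrays and a second probe at -0.13 and -0.07. Of the box H/ACA proteins, which make pseudouridine, the synthase DKC1 had the greatest fall, by 1.40 (SE 0.10) in PC9 and by 0.74 (SE 0.08) in PC9M2. Its untreated PC9 levels of 13.11 to 15.98 (median 13.81) met treated levels of 11.44 to 13.89 (median 12.19), and the treated levels within the untreated range were those from 0 to 3 h. NHP2, NOP10 and GAR1 fell by 0.66, 0.55 and 0.44 in PC9 and by 0.48, 0.51 and 0.34 in PC9M2.

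Of the 8 small subunit processing factors, 7 fell in both lines and NOB1 was higher than in untreated cells in both. UTP20, a scaffold of the small subunit processome, had levels of 9.36 to 10.60 (median 9.97) in untreated and 7.15 to 10.03 (median 8.21) in treated PC9. Treated levels reached the untreated range only from 0 to 3 h, as the plot of member levels shows. Its difference was -1.59 (SE 0.15) in PC9 and -1.04 (SE 0.08) in PC9M2. WDR43, another processome protein, fell by 1.53 (SE 0.12) and 0.81 (SE 0.08), and RRP9, a protein of the U3 snoRNP, by 1.39 (SE 0.11) and 0.77 (SE 0.10). TSR1 and BYSL, which act late in small subunit maturation, fell by 1.39 each in PC9 and by 1.06 and 0.90 in PC9M2. RRP12 fell by 1.06 and 0.82, and HEATR1 by 0.69 and 0.49. NOB1, the nuclease that makes the final cut of the small subunit RNA, had levels of 11.50 to 13.12 (median 12.04) in untreated and 12.04 to 13.01 (median 12.47) in treated PC9. It was 0.31 higher (SE 0.07, adjusted p = 0.000335, limma) with gefitinib in PC9 and 0.40 higher (SE 0.12, adjusted p = 0.00523) in PC9M2, and 0.30 higher in PC9M2 without the 3 time points named above. A second NOB1 probe that was not used differed by 0.18 in each line. Over time NOB1 went down in both PC9 courses. A spline of time was highest at 0 h in each, with a fitted range of 1.36 untreated and 0.71 treated.

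The 9 measured large subunit assembly factors were the most divided group, with 5 lower and 2 higher in PC9 and 8 lower in PC9M2. NOP2, a methyltransferase of the large subunit RNA, fell most. Its levels were 12.08 to 13.61 (median 13.04) in untreated and 10.26 to 12.37 (median 11.03) in treated PC9, and 11.14 to 12.41 (median 11.92) and 10.13 to 11.49 (median 10.94) in PC9M2. The differences were -1.78 (SE 0.11, lower at 26 of 26 time points) and -0.96 (SE 0.09, lower at 25 of 26). RRS1, which brings a small ribosomal RNA into the large subunit, was the member whose PC9 ranges did not overlap, at 11.96 to 12.66 (median 12.43) without and 10.68 to 11.84 (median 11.03) with gefitinib. It fell by 1.29 (SE 0.08) in PC9 and by 0.77 (SE 0.10) in PC9M2. BOP1 fell by 0.94 and 0.79, NIP7 by 0.88 and 0.60, and PPAN by 0.70 and 0.71.

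BOP1, PES1 and WDR12 are partners in 1 complex of large subunit assembly, and had different values. BOP1 fell as given above. WDR12 was 0.28 higher (SE 0.06, adjusted p = 9.19e-05) in PC9 and 0.16 lower (SE 0.06, adjusted p = 0.0215) in PC9M2. PES1 was 0.61 higher in PC9 (SE 0.27, adjusted p = 0.0454), a call that was lost without the 3 time points (adjusted p = 0.117), and its difference in PC9M2 was 0.08 (SE 0.14, adjusted p = 0.636). Its untreated PC9 levels ran from 1.88 to 8.29 (median 6.37), with the probe well above background on 21 of 26 arrays. A second PES1 probe that was not used, well above background on all 208 arrays, differed by 0.81 in PC9 and by 0.22 in PC9M2. GNL3, a nucleolar GTPase, had a difference of -0.00 (SE 0.08, adjusted p = 0.983) in PC9 and fell by 0.23 (SE 0.09, adjusted p = 0.0335) in PC9M2. MRTO4, a paralog of the ribosomal stalk protein, had a difference of -0.23 (SE 0.12, adjusted p = 0.0835) in PC9 and fell by 0.45 (SE 0.11) in PC9M2.

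Of the 6 multifunctional nucleolar proteins, 5 fell in both lines. LYAR, a zinc finger protein of the nucleolus, had the largest fall of all members in each line. Its levels were 10.41 to 11.89 (median 11.37) in untreated and 7.97 to 10.55 (median 9.17) in treated PC9, and 10.73 to 12.55 (median 11.51) and 9.57 to 10.75 (median 10.27) in PC9M2. The ranges overlapped by a narrow margin in both lines. The differences were -2.03 (SE 0.13, a 4.08-fold fall) and -1.30 (SE 0.09, a 2.46-fold fall), at 26 of 26 time points each. The RNA helicase DDX21 went from 12.98 to 15.89 (median 14.04) to 11.24 to 14.03 (median 12.12) in PC9, a fall of 1.75 (SE 0.12). In PC9M2 it went from 13.01 to 14.57 (median 13.45) to 11.72 to 12.85 (median 12.39), with no overlap and a fall of 1.14 (SE 0.06). The chaperone NOLC1 fell by 1.48 (SE 0.14, n = 25) and 1.01 (SE 0.10), and nucleolin (NCL) by 0.94 (SE 0.07) and 0.62 (SE 0.09), while a second NCL probe that was not used differed by -0.05 and -0.25. The helicase DDX10 fell by 1.04 (SE 0.16) in PC9 on a dim probe, which was well above background on 19 untreated and 14 treated arrays. In PC9M2 that probe was called lower but was well above background on only 4 and 2 arrays, so that no fold is given. A second DDX10 probe, well above background on all 208 arrays, differed by -0.94 in PC9 and by -0.55 in PC9M2. Nucleophosmin (NPM1) was the brightest case of saturation, with its probe saturated on all 104 PC9 arrays, and no fold is given there. In PC9M2 its levels were 16.22 to 16.87 (median 16.73) without and 16.56 to 16.87 (median 16.72) with gefitinib, a difference of 0.01 (SE 0.04, adjusted p = 0.802).

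The same comparison in the presence of EGF gave 26 lower and 4 higher members in PC9 (39.9% and 39% of all tested genes) and 28 lower and 1 higher in PC9M2 (37.8% and 36.7%). The 4 higher members in PC9 were PES1, NOB1, WDR12 and NPM1, of which NPM1 had a saturated probe on every PC9 array and turned sign under other processing. The median differences were -1.05 and -0.77. These arrays are separate from those of the comparison without EGF.

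**Figure D2:**
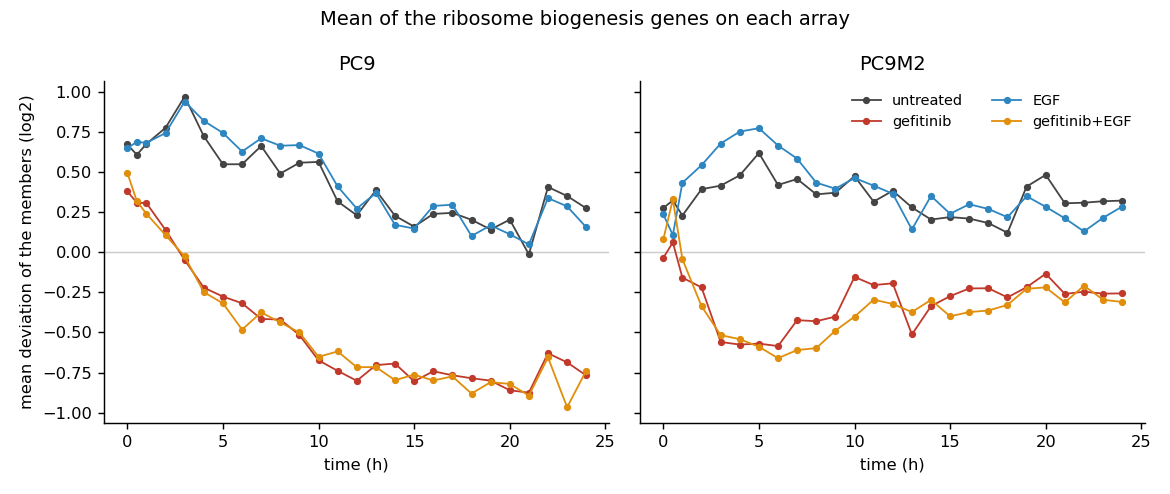
Mean deviation of the 32 members from their own means over all 208 arrays (log2), on each array, against time in hours, for PC9 (left) and PC9M2 (right), with 1 line per treatment. The courses without gefitinib (dark and blue) run above those with gefitinib (red and orange) in PC9, and in PC9M2 from 1 h on, while at 0.5 h the PC9M2 course with both agents lies at 0.33, above that with EGF at 0.11; in PC9 the treated courses go on falling after 6 h, and in PC9M2 they are lowest between 3 h and 6 h and then climb.

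The mean of the members summarizes the course, here as the mean of each member's deviation from its own mean over all 208 arrays. It was given without a test. In untreated PC9 this mean ran from -0.01 to 0.97 (median 0.40) and with gefitinib from -0.88 to 0.38 (median -0.68). In PC9M2 it ran from 0.12 to 0.62 (median 0.32) and from -0.58 to 0.06 (median -0.26). At matched time points the treated mean was lower at 26 of 26 in both lines, by 0.91 on average in PC9 (SD 0.24, from -0.29 at 0 h to -1.24 at 10 h) and by 0.64 in PC9M2 (SD 0.23, from -0.26 at 0.5 h to -1.19 at 5 h). The PC9M2 difference was thus greatest early and the PC9 difference later.

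The members were then tested by time window. At 0 and 0.5 h, 0 of the 32 members were called in either line by limma (0.98% of all genes in PC9 and 1.04% in PC9M2). At an unadjusted p under 0.05, 4 were lower in PC9 and 6 in PC9M2, the methods' t-test with Benjamini-Hochberg adjustment called 0, and the median differences were -0.30 and -0.25. From 1 to 6 h, 25 members were lower and 0 higher in PC9 (14.3% and 16.1% of all genes), and 27 were lower and 1 higher in PC9M2 (17.7% and 17.6%). The medians were -0.75 and -0.97. From 7 to 15 h, 27 were lower and 2 higher in PC9 (33.5% and 30.3%), and 28 were lower and 1 higher in PC9M2 (28.4% and 28.2%), with medians of -1.12 and -0.66. From 16 to 24 h, 26 were lower and 5 higher in PC9 (36% and 34.2%), and 23 were lower and 1 higher in PC9M2 (33.2% and 30.2%), with medians of -1.18 and -0.58.

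**Figure D3:**
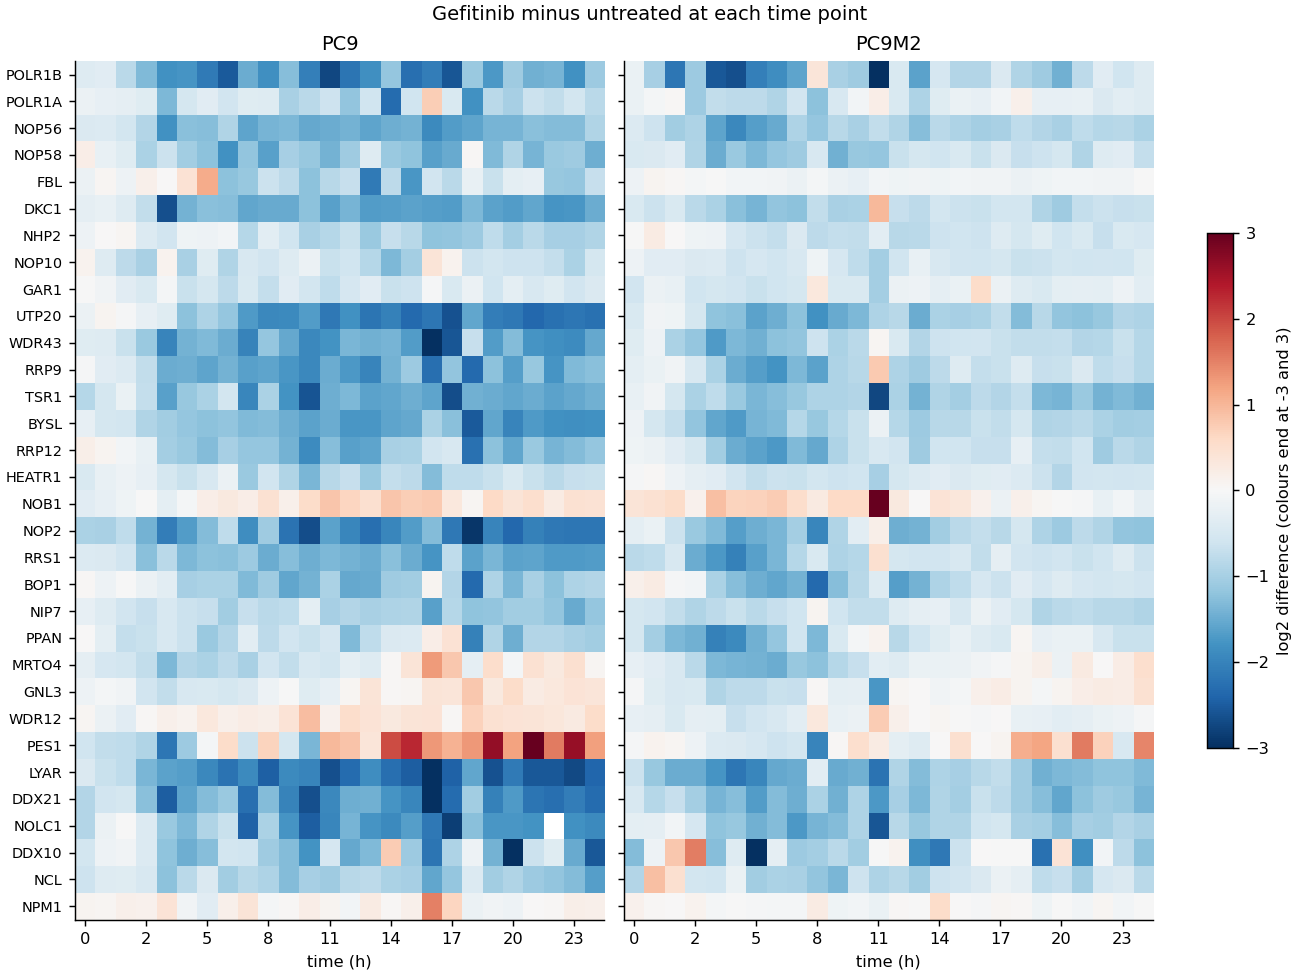
Log2 difference between gefitinib-treated and untreated cells at each of 26 time points (columns, hours) for each member (rows, by role), in PC9 (left) and PC9M2 (right). Blue is lower with gefitinib and red higher, colours end at -3 and 3, and the white cell of NOLC1 at 22 h in PC9 is a missing value. The blue of PC9 is deeper in late columns and that of PC9M2 in early ones, while MRTO4, GNL3 and PES1 turn red in late PC9 columns; the columns of 11 h, 16 h and 18 h include the 3 arrays that stood apart.

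In PC9 the difference from 16 to 24 h was more negative than that from 1 to 6 h for 13 members (24% of all genes) and more positive for 5 (23.6%). Among the 13, UTP20 moved most, from -0.66 to -2.18 (change -1.52, SE 0.18), followed by NOLC1 (change -1.16, SE 0.25) and LYAR, which went from -1.59 to -2.48 (change -0.89, SE 0.22). NOP2 went from -1.33 to -2.14. The 5 that moved the other way were PES1, MRTO4, GNL3, NOB1 and WDR12. The change of PES1 was the greatest of all members in size, from -0.74 to 1.91 (change 2.64, SE 0.52), on a probe well above background on 194 of 208 arrays. It followed the untreated course. A spline of time for PES1 had a fitted range of 3.03 in untreated PC9, with its lowest point at 21 h. In treated PC9 the fitted range was 0.19 and PES1 was not called changed over time. MRTO4 was lower by 0.88 from 1 to 6 h and higher by 0.40 from 16 to 24 h (adjusted p = 0.00015 and 0.00977), and GNL3 went from -0.49 to 0.42 (adjusted p = 0.000407 and 5.06e-05). Both thus fell early and were above untreated cells late, so that their small mean differences in PC9 over all time points stand for 2 opposite phases. In untreated PC9, MRTO4 levels ran from 8.93 to 11.85 over the course and GNL3 levels from 12.06 to 13.67.

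In PC9M2 the difference was more positive late than early for 12 members (18.7% of all genes) and more negative for 0 (18.3%). POLR1B went from -2.06 to -0.76 (change 1.30, SE 0.35), MRTO4 from -1.16 to 0.11 (change 1.26, SE 0.18), PPAN from -1.55 to -0.36 (change 1.19, SE 0.18), and PES1 from -0.34 to 0.67 (change 1.02, SE 0.32). RRS1 went from -1.46 to -0.56, GNL3 from -0.67 to 0.18, LYAR from -1.74 to -1.16 and NOP56 from -1.45 to -0.89. UTP20 stayed at -1.03 and -1.02. MRTO4, PES1 and GNL3 were also among the members with a more positive difference late in PC9. Without the 3 time points named above, the counts were 4 higher and 13 lower in PC9 and 13 higher and 1 lower in PC9M2.

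**Figure D4:**
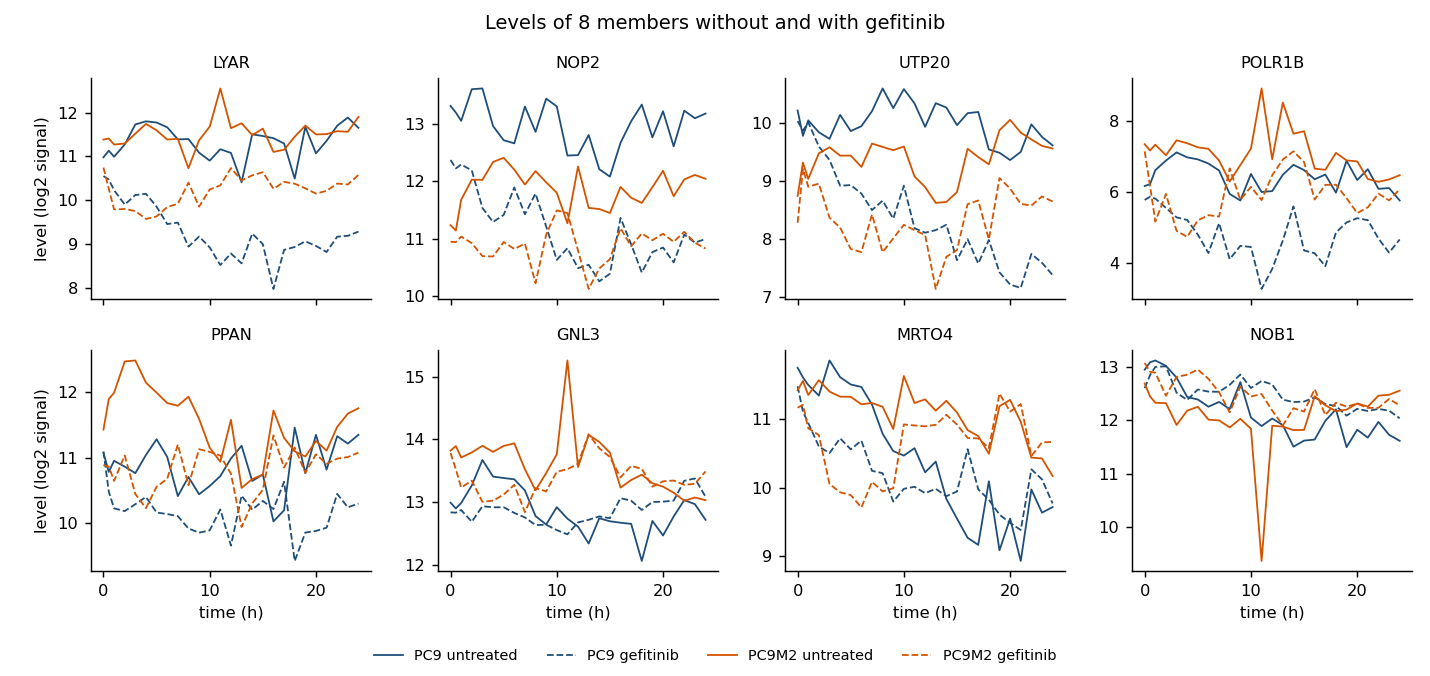
Levels (log2 of quantile-normalized signal) of 8 members against time in hours, for PC9 (blue) and PC9M2 (orange), untreated (solid) and with gefitinib (dashed), 1 array per point. In treated PC9, a spline of time is lowest at 14 h for LYAR and NOP2 and at 22 h for UTP20. There GNL3 and MRTO4 cross the untreated course, and the spikes of untreated PC9M2 at 11 h belong to an array that stood apart.

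Whether gefitinib acted differently in the lines was tested on the difference of the differences. The lines also differ in slide, scan day and scanner range, which this test cannot tell apart from the line. A positive value means that the difference was more positive, or less negative, in PC9M2. This comparison called 17 members higher and 3 lower (17% of all tested genes in each direction), with a median of 0.28 against 0.01 over all genes. The 17 were led by NOP2 (0.82, SE 0.14), LYAR (0.73, SE 0.16), WDR43 (0.72, SE 0.14), DKC1 (0.67, SE 0.12), RRP9 (0.63, SE 0.12) and DDX21 (0.61, SE 0.13), each of which fell in both lines and further in PC9. NOP2 had the sign of the mean at 23 of 26 time points and LYAR at 19. The 3 lower ones were WDR12 (-0.44, SE 0.08), GNL3 (-0.22, SE 0.07) and MRTO4 (-0.22, SE 0.08), all large subunit assembly factors. Small subunit processing factors were called higher for 6 of 8 and large subunit factors for 3 of 9. Values that did not pass included PPAN (-0.02, SE 0.15), NOP10 (0.04, SE 0.09) and BOP1 (0.15, SE 0.12). With each array scaled to its 75th percentile the split was 11 higher and 4 lower. It was 14 and 3 without the 3 time points, 9 and 1 with unpaired courses and 0 and 0 with 1 in 3 time points, so that these calls depend on the pairing and the number of time points.

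The members' gefitinib differences, as distinct from their levels, differed between the lines mainly in the later windows. In this test, which was added after the data had been seen, limma called 0 members at 0 and 0.5 h (0 of all genes, and 0 members at an unadjusted p under 0.05 or by the methods' t-test). From 1 to 6 h it called 0 (2.36% of all genes). At an unadjusted p under 0.05 there were 1 higher and 5 lower, the t-test called 0, and the median was -0.12. It called 15 higher and 0 lower from 7 to 15 h (13.8% and 10.9% of all genes, median 0.39) and 19 higher and 2 lower from 16 to 24 h (15.8% and 17.4%, median 0.54). The change from 1 to 6 h to 16 to 24 h was itself higher in PC9M2 for 15 members and lower for 1 (8.17% and 6.79% of all genes). It was greatest for UTP20 (1.53, SE 0.22), LYAR (1.47, SE 0.30), RRS1 (1.35, SE 0.20), PPAN (1.28, SE 0.33), NOLC1 (1.20, SE 0.31) and BYSL (1.18, SE 0.20), and NOB1 was the member lower (-1.09, SE 0.29). The window of 0 and 0.5 h holds 2 time points.

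EGF moved few members. In PC9, 4 of 32 were higher (11.3% of all tested genes) and 0 lower (14.3%, and 3 members at an unadjusted p under 0.05), while the methods' t-test called 3. They were LYAR (0.23, SE 0.06, adjusted p = 0.00413), NOP10 (0.23, SE 0.08, adjusted p = 0.0418), DDX10 (0.17, SE 0.06, adjusted p = 0.0357) and TSR1 (0.12, SE 0.05, adjusted p = 0.0472), and the calls of NOP10 and DDX10 were lost without the 3 time points. The DDX10 value came from its dim probe, and the probe well above background on all 208 arrays differed by 0.017. LYAR levels with EGF were 11.00 to 12.23 (median 11.54) beside 10.41 to 11.89 (median 11.37) without, and the ranges overlapped for all 32 members, as for all tested genes. In PC9M2 limma called 0 members (9.12% of all genes), 3 were higher at an unadjusted p under 0.05, and the t-test called 0. In its window from 1 to 6 h, 5 were higher (2.78% of all genes), namely LYAR (0.59, SE 0.16), DDX21 (0.41, SE 0.11), WDR43 (0.37, SE 0.09), NOP2 (0.36, SE 0.11) and NOP56 (0.34, SE 0.08).

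On top of gefitinib, limma called 0 members for EGF in PC9 (0.0452% of all genes), with 2 higher and 2 lower at an unadjusted p under 0.05 and 0 by the t-test. In PC9M2 it called WDR43, which was 0.15 lower (SE 0.03, adjusted p = 0.0181, against 3.23% of all genes called), and 9 members were lower without the 0 and 0.5 h time points. The EGF difference with gefitinib minus that without was called for DDX10 (-0.63, SE 0.16) and NHP2 (0.18, SE 0.06) in PC9 (13% of all genes) and for WDR43 (-0.28, SE 0.07) in PC9M2 (10.2%). A difference of the EGF effect between the lines was called for 0 members (1.33% of all genes), with 1 higher and 2 lower at an unadjusted p under 0.05 and 0 by the t-test. The EGF and gefitinib comparisons share the untreated arrays.

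Without treatment the members as a whole went both ways between the lines. Of the 8 small subunit processing factors, however, 6 were lower in PC9M2 and 0 higher (median -0.35, beside 37% and 31.1% of all tested genes). The counts were the same under EGF (37% and 32.8%). With gefitinib 0 of these factors were lower and 1 higher (median 0.07, beside 34.3% and 30.7%). Line and scanner range cannot be told apart here, and these counts are not given under other scaling. A second TSR1 probe differed by -0.19 without treatment, beside -0.38 for the one used. Over all members without treatment, the calls were as follows. PC9M2 was higher for 8 members (31.1% of all tested genes) and lower for 14 (37%), with a median of -0.06 against -0.05 over all genes. This split was 12 and 12 with scaling to the 75th percentile and 11 and 13 with median centring. NOP2 was 1.11 lower in PC9M2 (SE 0.10, lower at 26 of 26 time points), UTP20 0.62 lower (SE 0.12), DDX21 0.52 lower (SE 0.16) and WDR43 0.51 lower (SE 0.09). GNL3 was 0.75 higher (SE 0.11), POLR1B 0.68 (SE 0.13), MRTO4 and PPAN 0.65 (SE 0.15 and 0.12) and WDR12 0.53 (SE 0.11). A second POLR1B probe, well above background on all 208 arrays where the one used was so on 196, differed by 0.10, and a second PPAN probe by 0.48. Differences of FBL (-0.50), NCL (-0.28) and NPM1 (0.91) turned sign under other scaling or another probe, and that of NPM1 sets a saturated PC9 signal against an unsaturated one. With EGF the split was 10 higher and 15 lower (32.8% and 37% of all genes), or 12 and 11 with scaling to the 75th percentile.

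With gefitinib in both lines, PC9M2 was higher for 11 members and lower for 2 (30.7% and 34.3% of all genes), with a median of 0.17. POLR1B was 1.14 higher (SE 0.18) on the probe that gave the larger untreated difference, LYAR 0.92 (SE 0.16), DKC1 0.86 (SE 0.15) and NOP56 0.63 (SE 0.12). PES1 was 0.56 lower (SE 0.16) and DDX10 1.54 lower (SE 0.25), the latter with an opposite sign under normexp background correction or with its brightest probe. The members' mean ran from 0.51 lower in PC9M2 at 3 h to 0.73 higher at 20 h, so that the sign of this comparison turned within the course. The sign also turned without gefitinib. The line difference of the mean ran from -0.56 at 3 h to 0.32 at 21 h in untreated cells. With EGF it ran from -0.58 at 0.5 h to 0.18 at 19 h. With both agents the counts were 11 higher and 4 lower (31.4% and 36.2%).

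The share of members that changed over time within a course was mostly close to that of all genes. A spline of time called 22 of 32 members changed in untreated PC9 (66.3% of all genes), 28 with gefitinib (77.8%), 27 with EGF (78.8%) and 29 with both (83.1%). In PC9M2 the counts were 17 (67.1%), 21 (63.6%), 24 (74.9%) and 24 (67.7%). Each time point of a line had its own slide and a scan day covered neighbouring hours, so that change over time cannot be told apart from slide and scan day. With scan day as a random block the counts were 8 in untreated and 15 in EGF-treated PC9M2. The fitted range of the median member was 0.78 in untreated and 1.35 in treated PC9, beside 0.98 and 1.11 for the median gene, and 0.58 and 0.73 in PC9M2, beside 0.98 and 0.81. The members' mean in untreated PC9 was 0.71 (SD 0.16) from 1 to 6 h and 0.23 (SD 0.12) from 16 to 24 h. In untreated PC9M2 it was 0.43 (SD 0.13) and 0.30 (SD 0.11). Over the sum of squares of the balanced design, gefitinib held 43.6% of the members' variance and 23.8% of that of all genes, the line 10% and 25.2%, time 15.1% and 14.8%, and EGF 0.105% and 0.286%.

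The members were not alike in how they followed the rest. After the group means had been taken out, DKC1 (r = 0.83), HEATR1 (r = 0.83) and DDX21 (r = 0.80) followed the mean of the other members most closely over the 208 arrays. GAR1 (r = 0.31), PPAN (r = 0.30) and GNL3 (r = 0.29) followed it least, apart from NPM1 (r = -0.43), whose probe was saturated in PC9. These arrays share slides and neighbouring time points, and the values are a description.

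Other genes of ribosome synthesis were taken from lists that do not contain the members, and 3 of 4 lists had mostly lower genes in both lines, beside 37.2% lower and 35.1% higher genes among all tested in PC9 and 34.1% and 32.6% in PC9M2. Of 44 further small subunit processome genes, 33 were lower and 5 higher with gefitinib (median -0.58), and of 49 further large subunit genes 33 were lower and 7 higher (median -0.61). Of 24 genes of snoRNP assembly and the RNA exosome, 16 were lower and 3 higher (median -0.46). Of 14 further Pol I genes, 7 were lower and 5 higher (median -0.38), a list that went both ways. In PC9M2 the same lists had 36 and 4, 31 and 7, 15 and 2, and 6 and 6. The Pol I subunit POLR1G fell by 2.21 (SE 0.13) in PC9 and by 1.80 (SE 0.10) in PC9M2. The nucleolar proteins CCDC86 and URB2 fell by 1.96 and 1.75 in PC9 and by 1.12 and 1.05 in PC9M2, and PNO1, a late small subunit factor, by 1.72 and 1.26. RIOK2, a kinase of late small subunit maturation, rose by 1.45 (SE 0.10) in PC9 and by 1.53 (SE 0.13) in PC9M2, at 26 of 26 time points each.

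**Figure D5:**
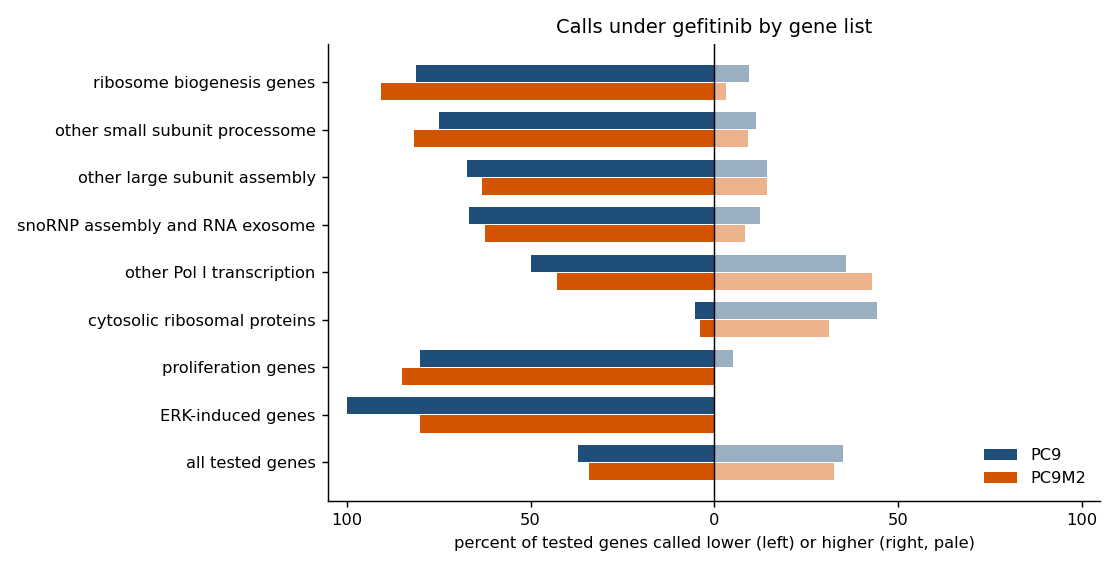
Percent of the tested genes of each list that were called lower (left, full colour) or higher (right, pale) with gefitinib, for PC9 (blue) and PC9M2 (orange). The ribosome biogenesis genes and the further processing lists extend to the left beyond all tested genes (37.2% lower in PC9), apart from the further Pol I genes in their near balance of calls, whereas cytosolic ribosomal proteins have few calls to the left.

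The structural proteins of the ribosome had few lower genes. Of 77 cytosolic ribosomal protein genes, 34 were higher (44.2%, beside 35.1% of all genes) and 4 lower (5.19%, beside 37.2%) with gefitinib in PC9 (median 0.11). In PC9M2, 24 were higher (31.2%, beside 32.6%) and 3 lower (3.9%, beside 34.1%, median 0.05). RPS26 was an exception and had a difference of -2.06 (SE 0.28) in PC9. It was also called lower in PC9M2, where its probe was well above background on 24 untreated and 7 treated arrays, so that no fold is given. These genes have many near-identical pseudogene copies, and their values are uncertain for that reason. Saturation of bright probes on the PC9 arrays can also hide a change here, and the number of these genes it touched is not given.

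Most ERK-induced and proliferation genes were lower over the whole course. All 10 genes known to be induced by ERK signaling fell in PC9 (median -3.77, beside 37.2% of all genes lower). In PC9M2, 8 of 10 fell (median -1.07, beside 34.1% of all genes). The gefitinib difference was less negative, or more positive, in PC9M2 for all 10. DUSP6, an ERK phosphatase that ERK itself induces, had levels of 12.82 to 13.93 (median 13.32) in untreated and 5.00 to 9.32 (median 6.13) in treated PC9, and its difference was -6.80 (SE 0.27). In PC9M2 it fell by 2.17 (SE 0.21), with a difference of -3.04 from 1 to 6 h and of -1.62 from 16 to 24 h. Of 20 proliferation genes, 16 were lower in PC9 (80%, beside 37.2% of all genes) and 17 in PC9M2 (85%, beside 34.1%). From 1 to 6 h, 0 were lower and 5 higher in PC9 (14.3% and 16.1% of all genes, median 0.28). In PC9M2, 9 were lower and 0 higher in that window (17.7% and 17.6%, median -0.34). RRM2, a subunit of ribonucleotide reductase, fell by 2.35 and 1.75.

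MYC fell by 1.74 (SE 0.17) with gefitinib in PC9 and by 1.19 (SE 0.15) in PC9M2. Its levels were 2.82 to 6.92 (median 5.14) in untreated and 2.14 to 4.89 (median 3.45) in treated PC9, and 4.50 to 6.97 (median 5.17) and 2.07 to 6.62 (median 4.19) in PC9M2. The probe was dim, being well above background on 15 untreated and 8 treated PC9 arrays and on 23 and 12 PC9M2 arrays. In PC9 its difference was -1.40 from 1 to 6 h and -2.19 from 16 to 24 h, and in PC9M2 -1.82 and -0.88. The line difference of that change was 1.74 (SE 0.59, adjusted p = 0.0475), and the line difference over all time points was 0.55 (SE 0.24, adjusted p = 0.0846). With EGF, MYC was 0.57 higher in PC9 (SE 0.14, adjusted p = 0.00302) and differed by 0.19 in PC9M2 (SE 0.11, adjusted p = 0.335). Between the untreated lines it differed by 0.34, which did not pass. Of 13 genes of the MYC network, 2 were lower (37.2% of all tested genes) and 7 higher (35.1%) with gefitinib in PC9. Among the higher was MXD4, a repressor that competes for MAX, which rose by 1.94 (SE 0.15) in PC9 and by 1.33 (SE 0.10) in PC9M2.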

How the data were processed

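RNA of 208 samples was hybridized to 1-colour Agilent arrays. The authors deposited each array's Feature Extraction output (version 10.5.1.1 in the file headers), whose processed signal is an intensity after background subtraction. They also deposited a matrix of quantile-normalized intensities, which was used here only as an alternative. Depth has no counterpart on arrays, and the number of arrays limits the precision.

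For this report the processed signals of 43376 features that are not controls were quantile normalized over all 208 arrays, floored at 1 and expressed as log2 (R 4.3.3, limma 3.58.1, data.table, version 1.17.8). Spots flagged as outliers were left out (0.0792% of tested values), and spots of one of the 41000 probes were averaged. RefSeq accessions named 24794 probes, and each gene took its most variable probe. Genes entered the tests if that probe exceeded background clearly on 13 or more of 26 arrays of a course, which left 13276 genes and removed 3685.

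Comparisons used limma on differences at matched time points, with the windows 0 and 0.5 h, 1 to 6 h, 7 to 15 h and 16 to 24 h, and change over time used a natural spline with 4 degrees of freedom. The scripts were tested on simulated data. Pairing by time point rests on the slide, which held the 4 treatments of a time point in 52 of 52 cases. Lines share no slide, and there the time point alone pairs them. The median lag-1 autocorrelation of the differences was 0.29 for gefitinib in PC9 and 0.259 in PC9M2, 0.49 and 0.387 for gefitinib with EGF, 0.37 to 0.509 for the line differences under a treatment and 0.109 for the line difference of the gefitinib effect. Where it is above 0, p-values are too small. The members and lists were chosen with earlier results of these data known. All 34 members could be named, from each other list at most 3 genes with the largest gefitinib difference in PC9 among those called, and MYC throughout. Promoters came from RefSeq (GRCh38.p14). Probe sequences were not used here. Alternatives covered scaling, background correction, probe choice, filters, saturated spots, pairing, scan day, autocorrelation and left-out time points.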

Additional observations from a re-analysis of the deposited data

Results flagged for a closer look

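The gefitinib effect differed between the lines, by limma's test of the difference itself, for 20 members (adjusted p from 5.67e-05 to 0.0438). In signed log2 units, PC9M2 minus PC9, the 3 negative values were -0.44 for WDR12, -0.22 for GNL3 and -0.22 for MRTO4. The positive values were 0.82 for NOP2, 0.73 for LYAR, 0.72 for WDR43, 0.67 for DKC1, 0.63 for RRP9 and 0.61 for DDX21. They were 0.55 for UTP20, 0.51 for RRS1, 0.50 for FBL, 0.49 for BYSL, 0.48 for NOLC1 and 0.46 for POLR1B. The smallest were 0.33 for TSR1, 0.32 for NCL, 0.28 for NOP56, 0.27 for NIP7 and 0.20 for HEATR1. The values of FBL and NCL turned sign under other scaling or another probe, and the probes of FBL (24 arrays), DKC1, NOP56 and DDX21 (2 arrays each) were saturated on some PC9 arrays.

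The EGF effect differed between cells with and without gefitinib for 3 members. With gefitinib minus without, the value was -0.63 for DDX10 (SE 0.16, adjusted p = 0.00877, limma) and 0.18 for NHP2 (SE 0.06, adjusted p = 0.0329) in PC9. It was -0.28 for WDR43 (SE 0.07, adjusted p = 0.0114) in PC9M2. The DDX10 probe was well above background on 77 of 208 arrays.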

How the results depend on the processing

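Over 19 alternatives, gefitinib lowered 24 to 28 members in PC9 (median difference -1.13 to -0.88) and 23 to 29 in PC9M2 (median -0.88 to -0.64). Of the single members' values that were recomputed, 3211 kept their direction and side of the threshold, 189 lost the call and 20 turned sign. The call of a line difference of the gefitinib effect was less firm, with 0 to 24 members called. Arrays limit what bright and dim probes can show, through saturation in PC9 and through signals near background (DDX10, MYC).

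Pairing by time point changed several counts. With no replicate block, so that courses were compared unpaired, the line difference of the gefitinib effect had 10 calls, and EGF in PC9, EGF with gefitinib in PC9M2 and the EGF difference with minus without gefitinib in either line had 0. The block changed no other count of calls by over 1.5 times.

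The other counts that moved are given by setting. With 1 in 3 time points, the counts were 0 for EGF in PC9, EGF with gefitinib in PC9M2, both EGF interactions with gefitinib and the line difference of the gefitinib effect, and 11, 13 and 9 for the line difference without treatment, with EGF and with both agents. Without 0 h and 0.5 h they were 2 for EGF in PC9M2, 9 for EGF with gefitinib in PC9M2 and 7 for its interaction. Without the 3 time points of arrays that stood apart, a setting chosen after seeing the data, they were 2 for EGF in PC9, 1 for EGF in PC9M2, 0 for EGF with gefitinib in PC9M2, 1 for the interaction in PC9, 1 for gefitinib in PC9M2 at 0 and 0.5 h, and 3 for the line difference from 1 to 6 h. With outlying points replaced by a spline (2.85% of values) they were 1 for the line difference of the EGF effect, 2 for EGF with gefitinib and 3 for EGF in PC9M2, 6 for its interaction, 4 for gefitinib in PC9M2 at 0 and 0.5 h and 4 for the line difference from 1 to 6 h. The EGF count in PC9M2 was 1 with 75th percentile scaling or the brightest probe and 2 with median centring, and that in PC9 was 2 with no filter on dim genes. The interaction in PC9 was 1 with median centring, normexp, the brightest probe, removal of saturated spots, a filter on all 26 arrays, or without NPM1 and DDX10, and that in PC9M2 was 3 with median centring and 2 with normexp. The line difference from 1 to 6 h was 1 with 75th percentile scaling, normexp, the brightest probe or the mean of all probes. With scan day as a random block, 15 members changed over time in EGF-treated and 8 in untreated PC9M2, 2 were called for EGF with gefitinib in PC9M2, and 9 between the lines with both agents. With variance inflated for autocorrelation, 16 and 8 were called between the lines with EGF and with both agents.

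Some values turned sign. The median line difference with EGF was 0.074, 0.048 and 0.014 with 75th percentile scaling, median centring and the mean of all probes. The untreated line difference of FBL was 0.90, 0.88, 0.068, 0.64 and 0.64 with 75th percentile scaling, median centring, the mean of all probes, normexp and saturated spots removed, and that of NCL was 1.09, 0.15 and 0.57 with 75th percentile scaling, the mean of all probes and the brightest probe. The line difference of the gefitinib effect was -0.035 for FBL with 75th percentile scaling and -0.44 and -0.20 for NCL with that scaling and the brightest probe. The NPM1 line difference was -0.050 in the deposited table and -0.77 with normexp without treatment, and -0.58 with normexp under gefitinib. Its gefitinib value with EGF in PC9 was -0.073, -0.041 and -0.076 in the deposited table, with median centring and with saturated spots removed. The DDX10 line difference under gefitinib was 0.097 and 0.074 with normexp and the brightest probe, and its EGF value in PC9 was -0.0087 with 1 in 3 time points. The cause of these changes was not tested. Normexp was run on median signals, a choice made after seeing that the files hold no mean signal, and the planned version was not run.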
